A study of Mus musculus with 12 samples.

Results

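The vacuolar proton pump (V-ATPase) and the lysosomal signalling genes around it were followed in RAW264.7 cells, a macrophage-like line from a Balb/c mouse that can form osteoclasts in culture. The 32 genes were taken by symbol, with 1 row per Ensembl identifier, out of 23764 identifiers: 18 of the V-ATPase (8 of its membrane sector V0, 8 of its cytosolic sector V1 and 2 accessory subunits), 5 of Ragulator, 4 of the Rag GTPases with Flcn, 2 Mcoln channels and the 3 transcription factors Mitf, Tfeb and Tfe3. All 32 passed the filter on low counts and were tested among 14715 genes, Rragd through the treated cells of day 5 alone.

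All cells were given RANKL, the cytokine that drives macrophage precursors towards osteoclasts. The treated arm also received culture supernatant of the bacterium L. reuteri (called treatment), and the other arm MEM-alpha medium (called vehicle). RNA was sequenced at days 1, 3 and 5, and each arm has 2 libraries on each day, 12 in all. The labels name RPMI 1640 and MEM-alpha as growth media without saying which library had which, and do not say whether the replicates were separate cultures, so p-values measure only the spread between these libraries.

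The V-ATPase hydrolyses ATP in V1 and passes protons through V0. In macrophages it acidifies lysosomes, and in osteoclasts it also sits in the membrane that faces bone, where the isoforms Tcirg1 (subunit a3) and Atp6v0d2 (subunit d2) are the characteristic ones. Ragulator anchors the Rag GTPases to the lysosome, where they recruit mTORC1 when nutrients are present, Flcn acts on RagC and RagD, and mTORC1 in turn keeps the MiT/TFE transcription factors out of the nucleus. When in the nucleus, these factors bind the CLEAR element in promoters of lysosomal genes, V-ATPase subunits included.

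The CLEAR core is part of the element that the MiT/TFE factors bind, so the promoters that hold it among the genes considered here are shown. Binding was not measured in these data. Promoters of 25 of the 32 genes were found in the RefSeq table (build GRCm38.p6, 250 bases before to 50 bases after each start site), searched on both strands. The 7 others are Atp6v0a2, Atp6v0d2, Atp6v1b2, Atp6v1c1, Atp6v1g1, Atp6v1h and Lamtor3. The letters TCACGTG were present in 8 of the 25 (32%), against 4.29% of all 27025 genes with a promoter in the table. The 60 bases around the matches read as follows, 5′ to 3′ on the gene's strand, with the core or its reverse complement in capitals. Where matches on both strands overlap, the capitals run on.
Atp6v0b: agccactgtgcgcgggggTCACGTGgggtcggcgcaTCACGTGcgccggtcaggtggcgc
Atp6v0d1: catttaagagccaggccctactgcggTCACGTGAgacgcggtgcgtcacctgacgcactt
Atp6v0e: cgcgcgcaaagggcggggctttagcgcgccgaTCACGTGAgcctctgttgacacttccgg
Atp6v1a: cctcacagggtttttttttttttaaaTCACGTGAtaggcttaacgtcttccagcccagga
Lamtor1: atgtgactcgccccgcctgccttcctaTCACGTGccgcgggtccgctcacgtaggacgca
Lamtor4: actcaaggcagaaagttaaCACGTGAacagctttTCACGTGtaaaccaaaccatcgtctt
Mcoln1: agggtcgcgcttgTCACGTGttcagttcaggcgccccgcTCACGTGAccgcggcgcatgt
Rragc: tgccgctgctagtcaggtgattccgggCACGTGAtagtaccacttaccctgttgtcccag

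On that build the stretches lie at chr4:117887325-117887384 (minus strand, Atp6v0b), chr8:105566035-105566094 (minus, Atp6v0d1), chr17:26676366-26676425 (plus, Atp6v0e) and chr16:44139358-44139417 (minus, Atp6v1a). The others lie at chr7:101905741-101905800 (plus, Lamtor1), chr5:138255343-138255402 (plus, Lamtor4), chr8:3500434-3500493 (plus, Mcoln1) and chr4:123917294-123917353 (plus, Rragc). The matches run from 132 bases before the start site in Atp6v1a to 4 bases after it in Atp6v0e. The Atp6v0b, Lamtor4 and Mcoln1 stretches each hold separated copies. The shorter E-box CACGTG, which every CLEAR core contains, was in 9 of the 25 genes (36%, Mcoln2 in addition) and in 8.09% of all genes. The M-box TCATGTG was in 3 (12%; Atp6v0c, Lamtor1 and Lamtor2) and in 4.31% of all genes. A match describes the letters only.

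The libraries held 8071160 to 16781080 reads, recovered from the deposited values. In 8 of them, 85.2% to 87.6% of reads fell on nuclear protein-coding genes. In the other 4, replicate 2 of days 3 and 5 in both arms, this share was 38.1% to 48.8%, mitochondrial genes took 25.7% to 30.6% of reads (3.64% to 5.97% in the 8) and the nuclear RNA Malat1 8.15% to 14.0% (0.218% to 0.489%). These 4 are called low-mRNA libraries. Tests used the 8 others, called intact, with 2 libraries per arm at day 1 and 1 per arm at days 3 and 5, so the spread behind every p-value came from day 1, and the single libraries of later days are assumed to vary like those. The summed level of 8 macrophage markers was 20335 to 331038 normalized counts per library and that of 9 osteoclast markers 2577 to 15152, while markers of T cells, B cells, neutrophils, fibroblasts and osteoblasts, epithelium and endothelium found in the table summed to at most 20.2.

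At day 1, 6 of the 32 genes rose in treated cells and 0 fell. They were the osteoclast isoforms Atp6v0d2 and Tcirg1, the V1 subunits Atp6v1d and Atp6v1c1, the Rag regulator Flcn and the lysosomal cation channel Mcoln2. Among all genes tested, 3.12% rose and 2.62% fell (limma on log2(normalized count + 1), Benjamini-Hochberg adjusted p under 0.05 over 14715 genes). The median difference of the 32 genes was 0.17 log2 units, against -0.04 for all genes. By sector, 2 of 8 V0 genes rose (median 0.19) and 2 of 8 V1 genes rose (median 0.22). Of the 2 accessory subunits, the 5 Ragulator genes and the 3 MiT/TFE factors, 0 passed the test. Leaving out any 1 of the 4 day 1 libraries, which leaves 1 residual degree of freedom, gave 0 calls, and so did a fit over all 12 libraries.

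**Figure D1:**
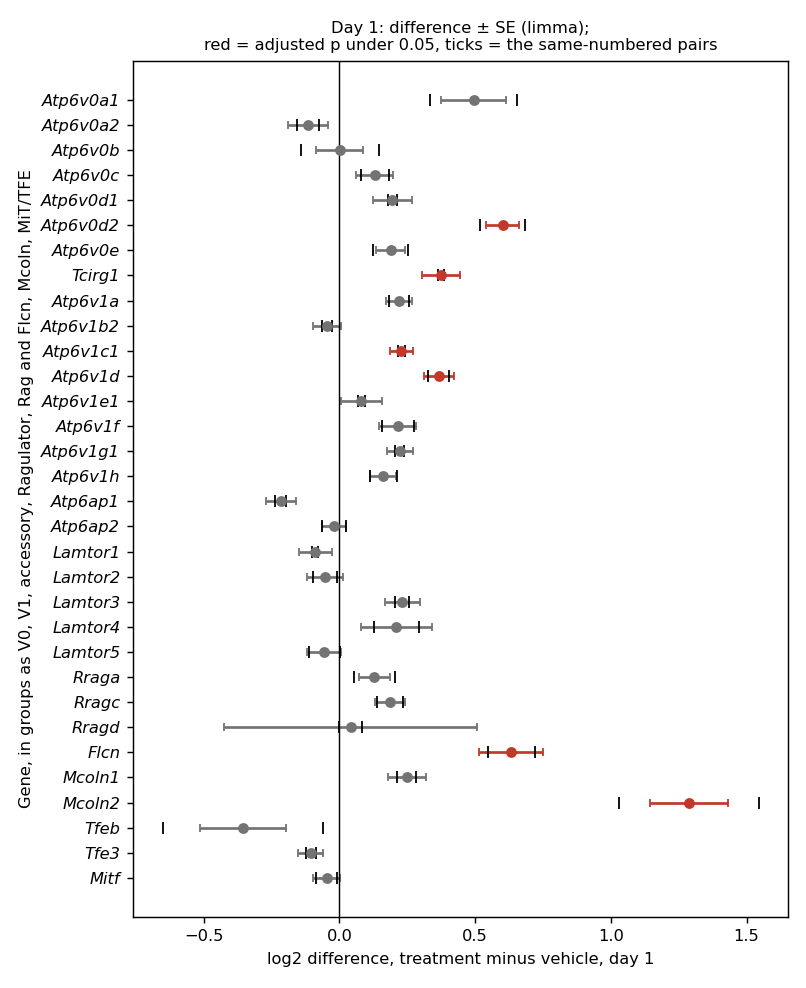
Difference between treatment and vehicle at day 1 for each of the 32 genes, in log2 units of (normalized count + 1), with the limma standard error as bars. Black ticks mark the differences between same-numbered libraries, and red points the 6 genes with an adjusted p under 0.05, led by Mcoln2 at 1.29 and Flcn at 0.63.

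Mcoln2 (TRPML2, a channel of recycling endosomes and lysosomes in immune cells) had 258 and 295 normalized counts in treated libraries, against 126 and 101 in vehicle libraries. The groups did not overlap, and the difference was 1.29 ± 0.14 (log2, SE; adjusted p = 0.0171). Flcn had 401 and 367 normalized counts with treatment, against 274 and 223 with vehicle, a difference of 0.63 ± 0.12 (adjusted p = 0.0483). Both treated libraries again lay above both vehicle libraries. For both genes this adds no support, because they were called on these same libraries.

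Atp6v0d2, the osteoclast isoform of the d subunit that couples the rotor of V1 to V0, had 463 and 442 normalized counts with treatment and 288 and 309 with vehicle. Its difference of 0.60 ± 0.06 had the smallest adjusted p of the 32 genes (0.0149). Tcirg1 had 3393 and 3119 normalized counts with treatment, against 2637 and 2389 with vehicle (0.37 ± 0.07, adjusted p = 0.0487). Neither gene's arms overlapped, which adds no support beyond the calls made on the same libraries. In bulk RNA, more cells expressing such a gene and more of its RNA per cell cannot be told apart.

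Among V1 subunits, Atp6v1d, part of the central rotor, averaged 824 ± 38.0 normalized counts in treated and 639 ± 5.15 in vehicle libraries (SD, n = 2 each), with a log2 difference of 0.37 ± 0.05 and an adjusted p of 0.0308 from limma. Atp6v1c1, a stalk subunit involved in joining V1 to V0, averaged 2772 ± 26.3 with treatment and 2368 ± 53.6 with vehicle (0.23 ± 0.04, adjusted p = 0.0483). Just outside the threshold were Atp6v1g1 at 0.22 (adjusted p = 0.0622), Atp6v1a at 0.22 (0.0676) and Atp6v0a1 at 0.49 (0.0803). Mitf (-0.05), Tfeb (-0.36) and Tfe3 (-0.11) all had negative differences that did not pass, with adjusted p of 0.598, 0.247 and 0.239. The 9 osteoclast markers summed to 3531 and 3303 normalized counts with treatment and to 3551 and 3584 with vehicle at this day, so their sum, mostly Dcstamp and Nfatc1, was not higher in treated cells. Single markers went both ways: Acp5, Ctsk and Mmp9 were higher in both treated libraries than in both vehicle libraries, Ocstamp and Nfatc1 were lower, and 4 of the 9 overlapped. Ctsk had 316 and 285 normalized counts with treatment and 169.7 in each vehicle library. The 8 macrophage markers summed to 173364 and 166134 with treatment and to 136361 and 123798 with vehicle, but most of this was Lyz2. Without it the sums were 33002 and 30763 with treatment and 31722 and 29080 with vehicle, which overlap. Of the 8, Cd68, Lyz2, Cd14 and Fcgr1 were higher in both treated libraries, Csf1r was lower and 3 overlapped. The part of these markers in the result was not tested.

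**Figure D2:**
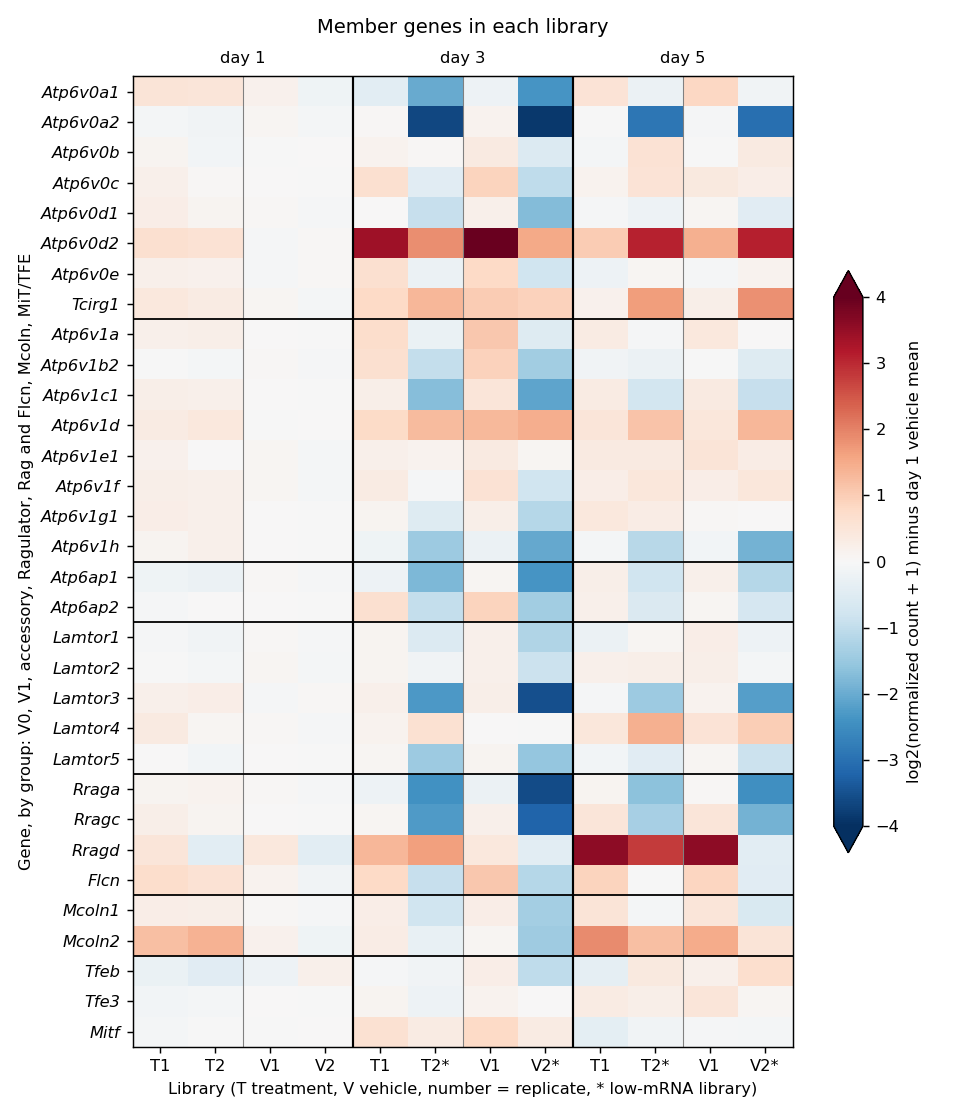
Level of each of the 32 genes in each of the 12 libraries, as log2(normalized count + 1) minus the mean of the day 1 vehicle libraries, with treatment left of vehicle at each day and an asterisk on low-mRNA libraries. Atp6v0d2 is the reddest row at day 3, and the low-mRNA columns are blue for Atp6v0a2, Rraga, Rragc and Lamtor3. Rragd is red at day 5 in replicate 1 of both arms and in the treated low-mRNA library.

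With time, the osteoclast isoform Atp6v0d2 had the largest difference of the 32 genes at day 3 in both arms, and 11 of the 18 V-ATPase genes rose in vehicle cells. In vehicle cells 13 of the 32 genes rose at day 3 relative to day 1 and 1 fell, where 9.69% of all genes rose and 10% fell. The median of the 32 genes was 0.26, against 0.04 for all genes. Of the V0 genes 4 of 8 rose (median 0.57), and of the V1 genes 6 of 8 rose and 1 fell (median 0.54), so the medians of the sectors were close. Leaving Atp6v0d2 and Tcirg1 out of V0 gave a median of 0.28. Of the 5 Ragulator genes 0 passed, and of the MiT/TFE factors only Mitf.

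Atp6v0d2 reached 4612 normalized counts in the vehicle library of day 3, against 288 and 309 at day 1 (3.95 ± 0.07 log2 units, adjusted p = 0.000335). In vehicle cells the low-mRNA library of that day had 850, lower than its partner but above both day 1 libraries. In treated cells it reached 3129 at day 3, against 463 and 442 at day 1 (2.79 ± 0.07, adjusted p = 0.000808), and 1085 in the low-mRNA library. The sum of the osteoclast markers moved alongside. It was 10624 in the treated and 12826 in the vehicle library of day 3. At day 1 it was 3531 and 3303 with treatment and 3551 and 3584 with vehicle. Nfatc1 alone had 5354 in the treated and 6224 in the vehicle library of day 3. Of the 9 markers, 6 were above day 1, 2 (Dcstamp and Itgb3) below and 1 overlapped in treated cells. In vehicle cells 6 were above, 0 below and 3 overlapped. Oscar, counted as above in both arms, had only 0.783 in the treated and 1.56 in the vehicle library of day 3. Itgb3, counted as below in treated cells, had 0 there, against 6.02 and 2.57 at day 1. The osteoclast sum was 5433 in the treated and 3217 in the vehicle low-mRNA library. The macrophage markers summed to 101751 in the treated and 77264 in the vehicle library of day 3, below both day 1 libraries of the same arm. Most of this difference was Lyz2. Without it the sums were 31167 with treatment and 29487 with vehicle, each between the day 1 values of its arm. Of the 8, 3 were above and 5 below day 1 in treated cells. In vehicle cells 3 were above, 4 below and 1 overlapped. At least 1 of Itgb3, Calcr and Oscar was at 0 in 10 of the 12 libraries. The part of these markers in the result was not tested.

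Tcirg1 had 5088 normalized counts in the vehicle library of day 3, against 2637 and 2389 at day 1, a rise of 1.02 ± 0.09 (adjusted p = 0.00261). Atp6v1d had 1571, against 635 and 643 (1.30 ± 0.07, adjusted p = 0.00105). Atp6v1a, the catalytic A subunit, had 16918, against 8135 and 7943 (1.07 ± 0.06, adjusted p = 0.0012). For each of the 3 the day 3 library lay above both day 1 libraries, which adds no support, because the genes were called on these same libraries. Atp6v1b2, the B subunit that pairs with A in the catalytic ring, had 7081, against 3830 and 3591 (0.93 ± 0.06, adjusted p = 0.00168), and Flcn had 520, against 274 and 223 (1.07 ± 0.14, adjusted p = 0.00894). Smaller rises were those of the accessory subunit Atp6ap2, also known as the prorenin receptor (0.89), the proteolipid Atp6v0c (0.88), Mitf (0.80), Atp6v0e (0.79), Atp6v1f (0.58), Atp6v1c1 (0.49) and Atp6v1g1 (0.24). The exception was Atp6v1h, a subunit that restrains ATP hydrolysis by free V1, which fell by 0.24.

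The low-mRNA vehicle library of day 3 did not show this for most subunits. Against the day 1 mean it stood at 1.51 for Atp6v0d2, 1.47 for Atp6v1d and 0.92 for Tcirg1, but at -0.53 for Atp6v1a, -1.40 for Atp6v1b2 and -1.14 for Flcn. Its median over all genes was -1.68 and over the 32 genes -1.14. Relative to that shift 23 of the 32 genes lay above the median of all genes. With all 12 libraries in the fit 0 of the 32 genes passed, and 7 of the 13 rises changed sign. Over the 8 libraries without vehicle replicate 1 of day 1 the count was 0, and without replicate 2 it was 1.

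In treated cells 9 genes rose at day 3 and 4 fell, where 10.8% of all genes rose and 9.13% fell. The medians were 0.29 for V0 and 0.13 for V1. Atp6v1b2 rose to 5783 normalized counts, against 3662 and 3520 at day 1 (0.69 ± 0.06, adjusted p = 0.00419). Mitf, the factor most tied to osteoclasts among the MiT/TFE genes, rose to 3396, against 2072 and 2207 (0.67 ± 0.06, adjusted p = 0.00381), and Atp6ap2 to 3720, against 2324 and 2398 (0.66 ± 0.05, adjusted p = 0.00311). Atp6v0c (0.50), Atp6v1a (0.49), Atp6v0e (0.46), Tcirg1 (0.43) and Atp6v1d (0.41) completed the rises. The count of 13 called was 1 without either treated library of day 1, 4 without vehicle replicate 1 and 5 without vehicle replicate 2 of that day, and 0 with all 12 libraries.

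The falls in treated cells were led by Mcoln2, with 137 normalized counts at day 3, against 258 and 295 at day 1, which is 0.498 of the day 1 level on the scale of normalized count + 1 (SE 0.18 in log2 units, adjusted p = 0.0195). Atp6v0a1, the a1 isoform, had 422, against 803 and 787 (-0.91 ± 0.15, adjusted p = 0.0151). Rraga, the GTPase RagA, had 816, against 1018 and 1057 (-0.35 ± 0.07, adjusted p = 0.0273), and Atp6v1h fell by 0.33. In vehicle cells the same day gave 0.07 for Mcoln2 (adjusted p = 0.816) and -0.21 for Atp6v0a1 (adjusted p = 0.372), both from day 1 levels below those of treated cells. The low-mRNA treated library stood at -1.58 for Mcoln2 and -2.51 for Atp6v0a1 against day 1, beside a median over all genes of -1.15.

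**Figure D3:**
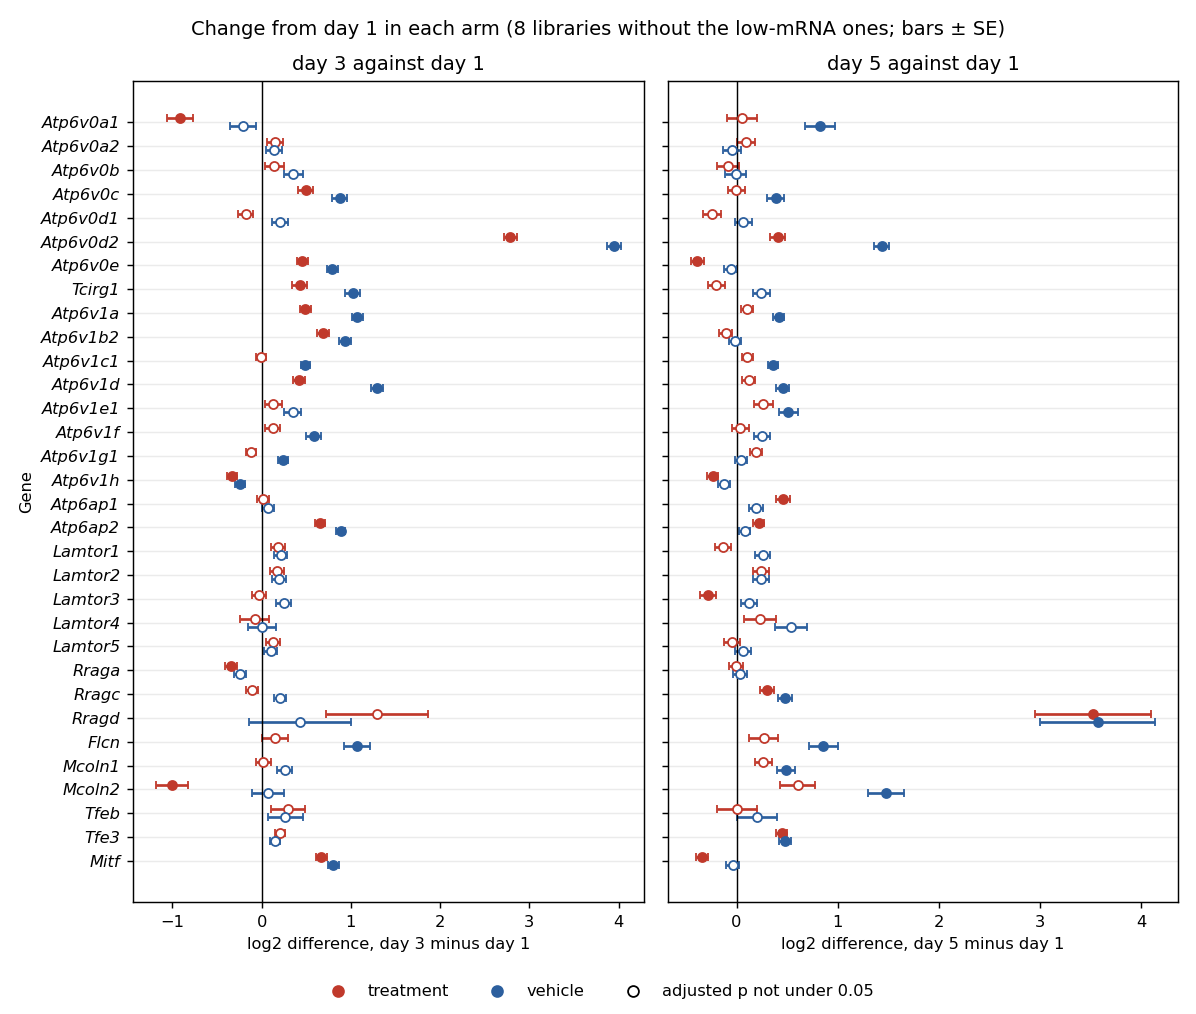
Change from day 1 to day 3 and from day 1 to day 5 for the 32 genes in treated and vehicle cells, as log2 differences with limma standard errors over the 8 libraries, filled where the adjusted p was under 0.05. Atp6v0d2 lies at 2.79 and 3.95 at day 3 and at 0.41 and 1.44 at day 5. The wide bars of Rragd belong to counts near 0, and its filled points at day 5 come from void tests.

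Compared between the arms at day 3, 0 of the 32 genes passed the test. Among all genes 0.116% rose and 0% fell, so few calls were made anywhere. At an unadjusted p under 0.05 limma gave 10 of the 32 genes, beside 12.3% of all genes, and limma-voom over the same 8 libraries called 3 at an adjusted p under 0.05. The single intact pair of libraries had 26 of the 32 genes lower with treatment, 17 of the 18 V-ATPase genes among them. The median was -0.23 for the V-ATPase genes, -0.17 for all 32 and -0.01 for all genes. Atp6v0d2 stood at -0.56 (adjusted p = 0.111), Atp6v1d at -0.52 (0.105) and Atp6v1a at -0.37 (0.16). In the low-mRNA pair 30 of the 32 genes were higher with treatment, but so was the median over all genes: 0.57 for the 32 beside 0.46. For the 18 V-ATPase genes that pair had a median of 0.44, with 9 of them above the median of all genes. For Atp6v0d2 that pair gave 0.35 and for Atp6v1a 0.25, and for Atp6v1d it gave -0.20. The osteoclast markers summed to 10624 with treatment and 12826 with vehicle in the intact pair, and to 5433 and 3217 in the low-mRNA pair. Their part in the result was not tested.

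**Figure D4:**
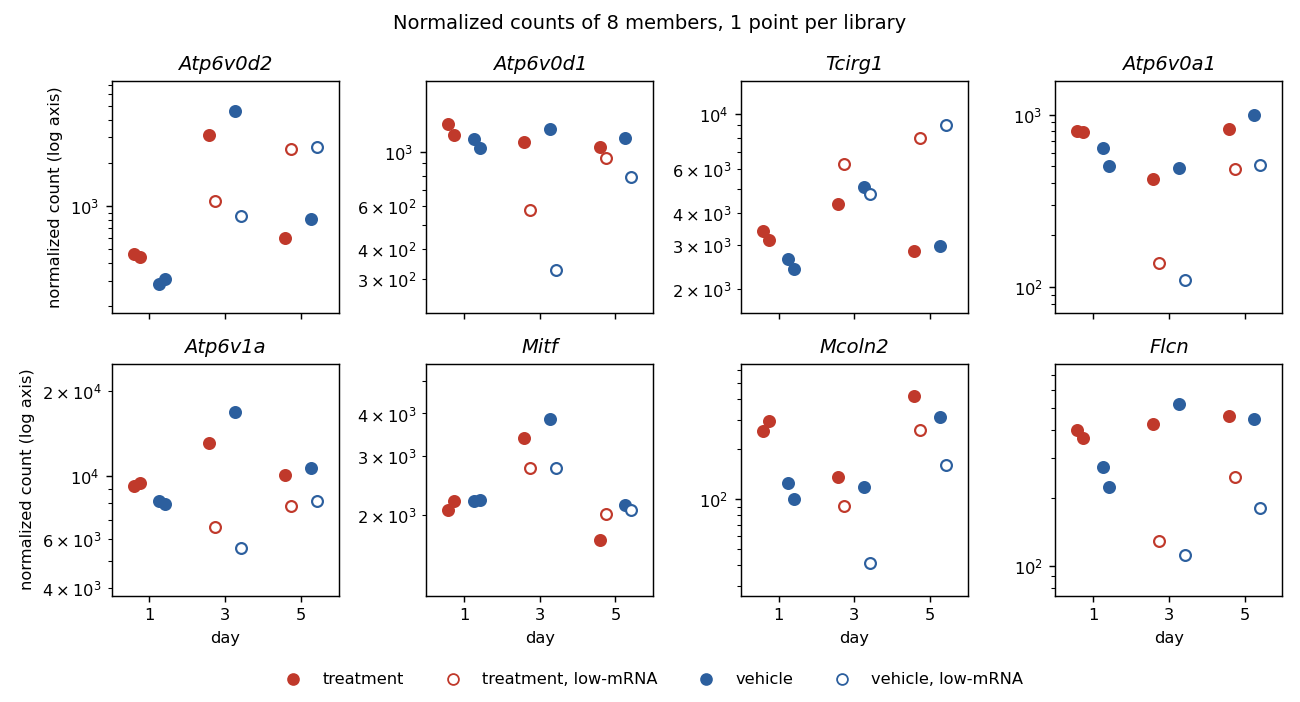
Normalized counts of 8 genes in each library by day on log axes, treatment left of vehicle, with open circles for low-mRNA libraries. The filled Atp6v0d2 points peak at day 3 at 3129 with treatment and 4612 with vehicle, whereas the open points are highest at day 5 at 2504 and 2569.

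At day 5 the rises in vehicle cells took in RagC, both Mcoln channels and Tfe3 as well as subunits of the pump. In these cells 13 of the 32 genes rose relative to day 1 and 0 fell, where 14.4% of all genes rose and 15% fell. Without Rragd, whose test is void because of how it passed the filter, 12 of 31 rose, with 5 of the 13 genes outside the V-ATPase among them. This comparison shares its day 1 libraries with that of day 3. Mcoln2 had 315 normalized counts at day 5, against 126 and 101 at day 1 (1.48 ± 0.18, adjusted p = 0.00477). Atp6v0d2 had 809, against 288 and 309 (1.44 ± 0.07, adjusted p = 0.000979), below its day 3 level of 4612. Flcn had 449, against 274 and 223 (0.86). Mcoln1, the lysosomal calcium channel TRPML1, had 424, against 312 and 293 (0.49). Rragc, the GTPase RagC, had 2461, against 1784 and 1754 (0.48), and Tfe3 had 1158, against 834 and 829 (0.48). Each of these day 5 values lay above both day 1 values, which adds no support, because the genes were called on these same libraries. V0 had 3 rises in 8 (Atp6v0a1 at 0.82 ± 0.15, adjusted p = 0.0142, Atp6v0c at 0.39 and Atp6v0d2), and V1 had 4 in 8 (Atp6v1e1 at 0.51 ± 0.09, adjusted p = 0.016, Atp6v1d at 0.46, Atp6v1a at 0.41 and Atp6v1c1 at 0.36). Atp6v0a1 had 1000.2 normalized counts at day 5, against 637 and 500.0 at day 1, and Atp6v1e1, a peripheral stalk subunit, had 1963, against 1442 and 1311. Markers moved alongside in the intact libraries: the macrophage sum was 331038 at day 5, against 136361 and 123798 at day 1, with 7 of the 8 markers above both day 1 libraries, and the osteoclast sum was 2693, against 3551 and 3584, with 5 of the 9 above and 3 below. Their part in the result was not tested. The low-mRNA vehicle library of day 5 stood against day 1 at 3.10 for Atp6v0d2, 0.51 for Mcoln2 and 0.09 for Tfe3, but at -0.45 for Flcn and -1.89 for Rragc, beside a median over all genes of -1.23, and 27 of the 32 genes lay above that median. The count of 13 was 4 without vehicle replicate 1 of day 1 and 2 without replicate 2, and it was 0 with all 12 libraries.

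Rragd, the GTPase RagD and in other mammalian cells a known target of the MiT/TFE factors, was at the edge of detection. It had 0.859 and 0 normalized counts in treated and 0.757 and 0 in vehicle libraries at day 1, which is 1 read or none. At day 5 the intact libraries had 14.7 in each arm. Its group mean reached the filter's 10 normalized counts in the treated cells of day 5 alone, so it was tested because it was high there, and its calls at day 5 are void. No p or fold is given. The low-mRNA libraries of day 5 did not match each other, with 8.30 in the treated and 0 in the vehicle library.

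In treated cells 6 genes rose at day 5 and 4 fell, where 12.9% of all genes rose and 18.1% fell. Without Rragd 5 of 31 rose, and these were Atp6ap1 (0.46 ± 0.07, adjusted p = 0.00807), Tfe3 (0.45 ± 0.06, adjusted p = 0.00555), Atp6v0d2 (0.41 ± 0.07, adjusted p = 0.0144), Rragc (0.30) and Atp6ap2 (0.22). Atp6ap1 is the accessory subunit Ac45, and its level was 3554 normalized counts at day 5, against 2640 and 2521 at day 1. Tfe3 had 1052, against 766 and 779, and Atp6v0d2 had 600.1, against 463 and 442. The falls were those of Atp6v0e (-0.39 ± 0.06, adjusted p = 0.011), Mitf (-0.34 ± 0.06, adjusted p = 0.0129), Lamtor3 (-0.28) and Atp6v1h (-0.24). Mitf stood at 1688, against 2072 and 2207 at day 1, below each of them, and Atp6v0e at 953, against 1263 and 1232. The macrophage sum was 323447, against 173364 and 166134 at day 1, with 8 of the 8 markers above both day 1 libraries. Most of this was Lyz2, and without it the sum was 49999, against 33002 and 30763. The osteoclast sum was 2577, against 3531 and 3303, with 3 of the 9 above and 5 below. Of those above, Oscar (0.918, against 0 and 0) was near 0. The part of the markers in the result was not tested. Tfe3 and Rragc thus rose in both arms, while Mitf, called up in both arms at day 3, was called down at day 5 with treatment and had a difference of -0.04 with vehicle (adjusted p = 0.653). In the low-mRNA treated library of day 5 the values against day 1 were 2.47 for Atp6v0d2, -0.60 for Atp6ap1, 0.34 for Tfe3, -0.08 for Mitf and -1.52 for Rragc, beside a median over all genes of -0.95. The count of 10 was 3 and 1 without treated replicate 1 and 2 of day 1, 5 without either vehicle library of that day, and 0 with all 12 libraries.

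Between the arms at day 5, 1 gene rose and 1 fell, where 2.54% of all genes rose and 3.27% fell. Atp6v1g1, a peripheral stalk subunit, had 2319 normalized counts in the treated and 1792 in the vehicle library (0.37 ± 0.07, adjusted p = 0.0447), and 2114 and 1749 in the low-mRNA pair. Treatment was higher in both pairs, but in the low-mRNA pair the median over all genes was higher with treatment too, at 0.23. Lamtor1, the lipid-anchored subunit that holds Ragulator on the lysosome, had 676 with treatment and 945 with vehicle (-0.48 ± 0.09, adjusted p = 0.0456). Its low-mRNA pair had 838 with treatment and 682 with vehicle, so the direction was not shared, beside the same median of 0.23 over all genes. Mitf (-0.35, adjusted p = 0.0538) and Atp6v0d2 (-0.43, adjusted p = 0.0539) were just outside the threshold, with low-mRNA pairs at -0.03 and -0.04. The low-mRNA values of Mitf and Atp6v0d2 thus lay below the median over all genes of that pair. In the intact pair the median of the 32 genes was -0.07, beside -0.09 over all genes. Both calls were lost without any 1 of the day 1 libraries and with all 12 libraries.

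Whether the effect of treatment differed between the days was tested directly, with an F test over the contrasts of days 3 and 5 against day 1. Of the 32 genes 0 passed in limma, beside 0.102% of all genes. At an unadjusted p under 0.05 there were 17, beside 17.9% of all genes, and limma-voom over the 8 libraries called 10 at an adjusted p under 0.05. The smallest adjusted p was that of Atp6v0d2 (0.0615), whose treatment difference was 0.60 at day 1, -0.56 at day 3 and -0.43 at day 5, followed by Atp6v1d (0.0846), Atp6v1a (0.11) and Atp6v1c1 (0.114). A rise called in one arm and not in the other is therefore not shown to differ between the arms.

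The osteoclast isoforms were next set against their ubiquitous counterparts, with counts divided by exon length. Atp6v0d2 made up 18.9% and 19.8% of the d subunit transcripts (Atp6v0d1 plus Atp6v0d2) in treated cells at day 1, against 14.4% and 16.3% in vehicle cells. At day 3 the share was 65.3% with treatment and 70.9% with vehicle, and at day 5 27.3% and 31.9%. The isoform of the minority at day 1 was thus that of the majority at day 3. In the low-mRNA libraries the share was 55.5% with treatment and 63.3% with vehicle at day 3, and 63.6% and 68.2% at day 5. At day 3 all 4 libraries were above all of day 1, whereas the replicates of day 5 stood far apart. Atp6v0d1 itself was called in 0 comparisons. In the intact libraries it had 1309 and 1181 normalized counts at day 1, 1097 at day 3 and 1053 at day 5 in treated cells, and 1131 and 1044, then 1249, then 1139 in vehicle cells. Atp6v0a2 was also called in 0 comparisons, with 716 and 679 normalized counts at day 1, 772 at day 3 and 742 at day 5 in treated cells, and 798 and 715, then 832, then 731 in vehicle cells.

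Tcirg1 was the main a subunit from the start. Per length it gave 76.3% and 75.4% of the a subunit transcripts (Atp6v0a1, Atp6v0a2 and Tcirg1) in treated cells at day 1 and 72.6% and 74.0% in vehicle cells. Its share was 84.1% with treatment and 84.8% with vehicle at day 3, and 72.2% and 71.2% at day 5. In the 4 low-mRNA libraries it was 95.1% to 97.8%. The order of the d isoforms thus differed between days 1 and 3, whereas Tcirg1 was the highest of the 3 a isoforms in every library. At day 1 the log2 ratio of Atp6v0d2 to Atp6v0d1 was higher by 0.41 with treatment (exact two-sided permutation p = 0.333, the smallest that 2 against 2 libraries allow), and that of Tcirg1 to Atp6v0a1 was lower, at -0.12 (exact p = 0.667).

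**Figure D5:**
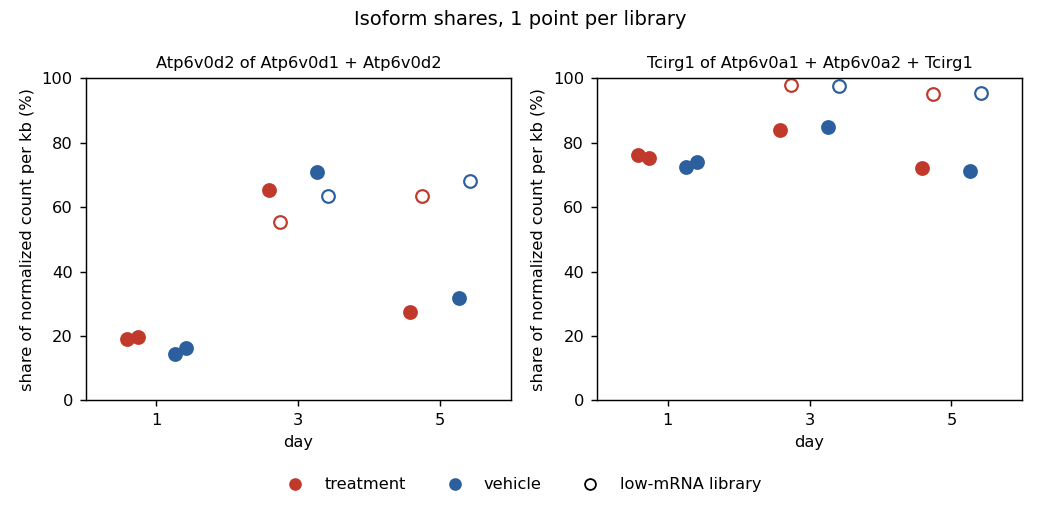
Share of Atp6v0d2 among d subunit transcripts and of Tcirg1 among a subunit transcripts in each library by day, in percent of normalized counts per kilobase of exon, with open circles for low-mRNA libraries. The d2 share is under 20% at day 1 in every library and over 55% at day 3, and the Tcirg1 share is over 70% throughout.

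Ragulator genes were called in 2 comparisons, Lamtor1 between the arms and Lamtor3 in treated cells, both at day 5. Over the 8 intact libraries Lamtor1 ranged from 676 to 945 normalized counts, the paired roadblock subunits Lamtor2 and Lamtor3 from 917 to 1148 and from 533 to 664, Lamtor4 from 140 to 212 and Lamtor5 from 639 to 744. Of the MiT/TFE factors, Tfeb had 188 and 164 normalized counts in treated cells at day 1, 216 at day 3 and 176 at day 5, and 196 and 259, 270 and 259 in vehicle cells on the same days. It was called in 0 comparisons, and its day 1 arms did not overlap. Mitf had 2072 and 2207 in treated cells at day 1 and 2201 and 2219 in vehicle cells, so its arms overlapped.

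Levels differed widely between genes. Per kilobase of exon in day 1 vehicle cells, Atp6v1g1 (1531 normalized counts per kb), Atp6v1a (1330) and Atp6v0c (1221), which forms the ring of V0, were highest, and Mcoln1 (40.0), Mcoln2 (34.4) and Rragd (0.0732) lowest. Atp6v0d2 was at place 25 of 32 with 110 per kb, and reached 1698 per kb in the vehicle library of day 3. Among the MiT/TFE factors the order was Mitf (357 per kb), Tfe3 (89.8) and Tfeb (40.1), and the ranges over the 8 intact libraries did not overlap between the factors. The neighbours Atp6v0a2 (113), Lamtor4 (112) and Atp6v0d2 (110) did not differ beyond their spread at day 1. A 33rd row of the table carried the symbol Lamtor3 but the identifier of the processed pseudogene Gm5900. It held 64.7 to 195 normalized counts per library, so reads may be shared and the Lamtor3 values are uncertain.

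The low-mRNA libraries held the genes unevenly. Within vehicle cells of day 5, the low-mRNA library stood at -1.28 relative to its partner over all genes, but at 1.67 for Atp6v0d2 and 1.60 for Tcirg1. In treated cells the median over all genes was -0.92, with 2.06 for Atp6v0d2 and 1.49 for Tcirg1. Tcirg1 had 7980 normalized counts in the treated and 9007 in the vehicle low-mRNA library of day 5, against 2833 and 2972 in the intact ones. The 3 lowest genes in treated cells were Atp6v0a2, the a2 isoform, at -2.85 with treatment and -2.96 with vehicle, Rragc at -1.82 and -2.37, and Rraga at -1.78 and -2.50. The 9 osteoclast markers summed to 15152 and 13521 in these treated and vehicle libraries, against 2577 and 2693 in their partners. The part of the RNA composition of these libraries in such differences was not tested.

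Over all 12 libraries, the genes whose log2 profile was most like that of Atp6v0d2 were the tyrosine kinase gene Src (Pearson r = 0.94), Rps27 (0.92), Faah (0.90), Nfkbid (0.90) and Rpl13-ps6 (0.90), given as a description over libraries that share the same RNA composition difference. Of the 32 genes, Tcirg1 (0.78) and Atp6v1d (0.77) came next to it, at places 97 and 101 of all genes.

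Other genes of the pathway were described from 5 lists, each to be read beside the shares of all genes called between the arms, which were 3.12% up and 2.62% down at day 1, 0.116% and 0% at day 3 and 2.54% and 3.27% at day 5. Without any 1 of the 4 day 1 libraries 0 of all genes were called between the arms, so every call named from these lists was lost too, as it was over all 12 libraries. Of 15 tested genes for other V-ATPase isoforms and assembly factors (20 listed), the assembly factor Vma21 rose at day 1 with treatment (0.49, adjusted p = 0.0149) and Ccdc115, another one, fell (-0.33, adjusted p = 0.0488). At days 3 and 5, 0 were called. The median at day 1 was 0.14, beside -0.04 over all genes.

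Of 28 tested genes for nutrient sensing by mTORC1 (29 listed), 2 rose and 2 fell at day 1 with treatment. Fnip1 (0.63 ± 0.05, adjusted p = 0.0102) and Fnip2 (0.91 ± 0.04, adjusted p = 0.00645), the partners with which Flcn forms its complex, rose, as Flcn did. Deptor, which binds mTOR and restrains it, fell by 0.70 at day 1 (adjusted p = 0.0346) and by 1.19 at day 5 (adjusted p = 0.024), with -1.40 in the low-mRNA pair of day 5. Sesn1, of the sestrin family of stress and leucine sensors, fell by 0.49 (adjusted p = 0.0274) and by 1.10 (adjusted p = 0.0143), with -0.63 in that pair. The list's median was 0.05 at day 1 and -0.09 at day 5.

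Of 15 tested genes for lysosomal channels, lysosome positioning and MiT partners (16 listed), Arl8b, which moves lysosomes along microtubules, rose at day 1 (0.22, adjusted p = 0.0495), and Tpcn1, an endolysosomal cation channel, fell at days 1 (-0.64, adjusted p = 0.0115) and 5 (-1.07, adjusted p = 0.0115). Pikfyve, a lipid kinase of endolysosomes, rose (0.40, adjusted p = 0.043) and Bloc1s2 fell (-0.58, adjusted p = 0.0366) at day 5. Of 6 genes that work with the pump in acid secretion, Car2, the carbonic anhydrase that supplies protons, rose at days 1 (0.94, adjusted p = 0.0177) and 5 (1.58, adjusted p = 0.0167), and Clcn7, the chloride and proton exchanger, at day 1 (0.63, adjusted p = 0.0149). Car2 had 353 and 334 normalized counts with treatment at day 1, against 188 and 169 with vehicle, and 131 with treatment at day 5, against 43.2 with vehicle. Of 11 tested autophagy genes of the CLEAR network (12 listed), Sqstm1 rose at days 1 (0.48, adjusted p = 0.0222) and 5 (0.62, adjusted p = 0.0296) and Gpnmb at day 1 (1.27, adjusted p = 0.00946). The day 1 medians of these 3 lists were -0.11, 0.04 and 0.09. At day 3, 0 genes of the 5 lists were called between the arms.

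Of the 8 genes with a CLEAR core shown above, 0 were called between the arms at days 1 and 3 and 1 at day 5, where Lamtor1 fell, beside 3.27% of all genes. Relative to day 1, 2 of the 8 (Atp6v0e and Atp6v1a) rose at day 3 in each arm, beside 10.8% of all genes in treated and 9.69% in vehicle cells. At day 5, 1 of the 8 (Rragc) rose and 1 (Atp6v0e) fell in treated cells, beside 12.9% and 18.1% of all genes, and 3 of the 8 (Rragc, Atp6v1a and Mcoln1) rose in vehicle cells, beside 14.4%.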

How the data were processed

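The deposited table holds, per the file headers, log2 values per gene and library. Tools named in the submitters' processing notes are TopHat2, SAMtools and DESeq2, and the build is mm9 (versions not given in the sources used here). No value is below 3, which is log2 of 8. Subtracting 8 on the linear scale turned 100% of the low nonzero values of every library into whole reads times 1 library factor (tolerance 0.02 reads). High values were not part of this check. The subtraction gave normalized counts, and division by the library factor with rounding gave reads. The table has 24757 rows and 23764 Ensembl identifiers, and 993 repeated rows were dropped. The identifier column that fits the symbols was used (89.2% of symbols match it, against 0.289% for a second one). Names came from the reference for 23315 genes. No strand setting is given, so reads from overlapping or antisense genes cannot be told apart.

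Groups and replicate numbers came from the titles. The 14715 genes kept had a group mean of 10 normalized counts or more in 1 or more of the 6 groups. On log2(normalized count + 1), limma (3.58.1, R 4.3.3) estimated each group's mean with a trended prior from 8 libraries, in which nuclear protein-coding genes took over 60% of reads, with 2 residual and 3.24 prior degrees of freedom and no block. It was tried on simulated data in which all libraries had a common spread, taken from the day 1 replicates. That trial could not test whether the single libraries of later days vary like those of day 1. At low counts, fold changes on that scale are understated. A count test was replaced by limma-voom on recovered reads as an alternative, since the deposited unit is log2.

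The genes, the lists and the choice of 8 libraries were made with earlier results of these data known. All 32 genes are accounted for. Counts are given for the osteoclast isoforms and their counterparts, the MiT/TFE factors, Flcn, Rragd and the Mcoln channels, and for the 6 called genes with the largest differences per comparison, and other genes more briefly. Alternatives were all 12 libraries, a term for low-mRNA libraries, a replicate block, no filter, quantile normalization, pseudocounts of 0.5 and 5, limma-voom, only the day 1 libraries and each library left out. Exon lengths (GENCODE) and promoters (RefSeq) are of later builds than mm9, and no coordinates of the files were used. Python 3.11.15, pandas 2.3.3, scipy 1.17.1 and matplotlib 3.10.9 were used.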

Additional observations from a re-analysis of the deposited data

Results flagged for a closer look

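For Fnip2, a partner of Flcn, the effect of treatment differed between the days (limma F test over days 3 and 5 against day 1, adjusted p = 0.0427), the only such call among the 32 genes and the listed pathway genes. The call rests on 1 intact library per arm at days 3 and 5 and on a spread taken from day 1. A difference between the days is therefore not established beyond these libraries. Fnip2 had 5661 and 5514 normalized counts with treatment at day 1, against 2943 and 2995 with vehicle. The difference was 0.91 ± 0.04 (log2, SE) at day 1, -0.18 ± 0.06 at day 3 and 0.05 ± 0.06 at day 5. Intact libraries had 4004 with treatment and 4534 with vehicle at day 3, and 4777 with treatment and 4616 with vehicle at day 5. The low-mRNA pairs gave 0.48 at day 3 and 0.43 at day 5, beside medians over all genes of 0.46 and 0.23.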

How the results depend on the processing

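Counts of the 32 genes called rest on the 8 intact libraries and on the day 1 replicates. Over all 12 libraries, with a replicate block over 12 and with limma-voom over 12, the count was 0 in each comparison. The 12-library fit called 0 of all genes, with 0 to 2 of the 32 at an unadjusted p under 0.05. A term for the low-mRNA libraries gave 0 calls at days 1 and 5 between arms, 5 and 2 for vehicle cells at days 3 and 5 and 1 for treated cells at day 3. In treated cells at day 5 that term left only the call of Rragd, whose test is void. No filter gave 0 at days 1 and 5 between arms, 6 for vehicle cells at day 5, 6 and 1 for treated cells at days 3 and 5 and 1 in the F test. Between arms, quantile normalization gave 1 at day 5, a pseudocount of 0.5 gave 3 at day 1, and a pseudocount of 5 gave 4 at day 5 and 1 in the F test. Limma-voom over 8 libraries gave 10, 3 and 4 at days 1, 3 and 5 and 10 in the F test. Each intact library of days 3 and 5 is alone in its group and adds nothing to the spread. Leaving it out is therefore no test of the other comparisons. Leaving out a day 1 library is such a test, and what it gave is stated with each comparison that had calls.

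Same-numbered libraries deviated together at days 3 and 5 (correlation over genes 0.90 at each) but not at day 1 (0.07), so the numbers were not taken as pairs. The replicate block over 8 libraries gave 14, 1 and 5 calls between arms at days 1, 3 and 5 and 6 in the F test.

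Over 12 libraries the sign was the other one for 0, 19 and 12 of the 32 genes between arms at days 1, 3 and 5, for 20 and 11 in vehicle cells at days 3 and 5 and for 12 and 13 in treated cells. Values follow for called genes and Tcirg1 only, with or without the block, each with limma-voom over 12 in brackets. Between arms at day 3, Tcirg1 was at 0.092 (0.082), and also 0.092 with the low-mRNA term. In vehicle cells at day 3, Atp6ap2 was at -0.25 (-0.18), Atp6v0c -0.077 (-0.037), Atp6v1b2 -0.23 (-0.18), Atp6v1c1 -0.80 (-0.73), Atp6v1f -0.11 (-0.073), Atp6v1g1 -0.45 (-0.41) and Flcn -0.033 (-0.037). At day 5, Atp6v1c1 was at -0.28 (-0.26), Mcoln1 -0.060 (-0.064) and Rragc -0.71 (-0.66). In treated cells at day 3, Atp6ap2 was at -0.14 (-0.088), Atp6v0c -0.038 (-0.016), Atp6v1b2 -0.10 (-0.061) and Atp6v1a -0.0047 (not reversed by limma-voom). At day 5, Atp6ap1 was at -0.067 (-0.055), Atp6ap2 -0.18 (-0.17), Tcirg1 0.55 (0.54) and Rragc -0.61 (-0.59). The cause was not tested.

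Days 3 and 5 have 1 intact library per arm, and Rragd is near the limit of detection.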
